A study of Mus musculus with 12 samples.

Results

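The genes described here encode the subunits, activators, inhibitor and dedicated assembly chaperones of the proteasome. They were taken by symbol from the deposited table, as every entry of the families Psma to Psmg, and kept where the mean deposited log2 value over the 12 libraries was at least 4. Of 49 such symbols 47 passed, among 25124 entries in the table and 11765 that were tested. Psma8, a testis form of an alpha subunit, was listed at 0, and Psmb11, a thymus form of a catalytic subunit, had a mean of -1.73. Both stayed out of every count given here. The 47 genes are 5 immune forms (Psmb8, Psmb9, Psmb10, Psme1 and Psme2) and 42 others, and the lowest group mean of each was at least 4, so none passed through a single group alone.

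The cells were MC3T3-E1, a line of mouse osteoblast precursors from calvaria. All groups were first held in 2.5% serum for 30 min. They were then left untreated, given TNFa at 10 ng/mL, given BMP4 at 10 ng/mL, or given TNFa followed by BMP4, with 3 polyA RNA-seq libraries in each group. The treatment protocol places TNFa 30 min before BMP4 and gives 3 h for BMP4. The characteristics name 3 h for both, so how long cells saw TNFa is unclear. The word p65 stands unexplained in the titles of libraries given TNFa alone. Nothing says that replicates came from separate cultures, so p-values measure the spread between these libraries, which may be technical. By its title the series asks how contact between Smad4 and the NF-kB subunit p65 bears on BMP-mediated protection from inflammatory cell death.

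The proteasome degrades proteins tagged with ubiquitin. Its core is a barrel of outer alpha rings and inner beta rings, capped by a regulatory particle whose base unfolds substrates with a ring of ATPases and whose lid removes ubiquitin. Inflammatory cytokines, interferon gamma above all, are known to bring in the immune forms: Psmb8, Psmb9 and Psmb10 take the places of the catalytic subunits Psmb5, Psmb6 and Psmb7, and Psme1 and Psme2 form the activator PA28. Immunoproteasomes are best known for supplying peptides to MHC class I molecules.

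Tag totals were 13.7 to 15.5 M per library, with 20.6 M in TNFa+BMP4 replicate 2. Replicate 1 of each group formed batch 1 and replicates 2 and 3 formed batch 2, by the labels, and 7541 tested entries differed between batches. Of 8 osteoblast and mesenchyme markers, Col1a1, Col1a2, Sparc, Runx2 and Spp1 (12.34 to 13.11) were high, and Sp7 (4.66 to 6.71) passed the minimum. Alpl and Bglap were below the minimum. Runx2, the osteoblast lineage factor, fell with TNFa by 0.60 (SE 0.07, adjusted p = 6.23e-07) and with both factors by 0.39 (SE 0.07). Among 8 leukocyte markers, Adgre1 and Cd3e were listed at 0 and Ptprc lay at -1.96 or lower, while Cd68 (4.34 to 4.70) and Lyz2 (4.43 to 5.00) passed the minimum and were not called with TNFa. The summed leukocyte level was 5.76 to 5.88 (log2) in untreated and 5.76 to 5.90 in TNFa libraries. Of 3 endothelial markers Pecam1 alone passed the minimum, and it rose by 0.39 ± 0.08 with both factors (adjusted p = 0.000488) and differed by -0.07 ± 0.08 with TNFa. Of 4 antigen-presenting cell markers, Flt3 was listed at 0, H2-Aa and H2-Ab1 were below the minimum, and Cd74 carried the sum, which was 5.42 to 5.52 in untreated, 7.03 to 7.39 in TNFa and 6.71 to 7.13 in TNFa+BMP4 libraries. The part of other cells in the results was not tested beyond these levels. In bulk RNA, fewer cells of a type and less RNA per cell cannot be told apart.

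Differences between groups are log2 fold changes ± standard error (SE) adjusted for batch, with n = 3 libraries per group, and a gene was called at an adjusted p under 0.05 by limma over all 11765 entries. Libraries of a group are listed in the order of replicates 1, 2 and 3. Single-library values are not adjusted for batch. Differences of the immune forms computed from the deposited values with TNFa were smaller than the log2 fold changes in the authors' deposited table, most of all for the weakly expressed Psmb9 and Psmb8, and the cause was not tested.

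TNFa raised all 5 immune forms. The catalytic subunits Psmb10 and Psmb8 rose 3.57-fold and 3.13-fold on the deposited scale, the PA28 subunits Psme2 and Psme1 rose 1.69-fold and 1.36-fold, and Psmb9 rose 1.46-fold. The order differs in the authors' deposited table. Its log2 fold changes are 3.09 for Psmb8, 2.16 for Psmb10, 1.85 for Psmb9, 0.85 for Psme2 and 0.51 for Psme1. Their constitutive counterparts Psmb5, Psmb6 and Psmb7 were not called. In all, 11 of the 47 genes were called higher and 0 lower, against 9.16% of all tested entries called higher and 6.32% lower. Since most proteasome genes are strongly expressed, the shares among entries with a mean log2 of at least 9 are given too: 12.5% higher and 7.2% lower. At an unadjusted p under 0.05 by limma, 13 of the 47 passed in either direction, as did 3124 of the 11765 tested entries.

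Psmb10 encodes the immune form of the trypsin-like subunit. Its gene lies at chr8:105935728-105938392 on the minus strand (mm10). It stood at 8.26, 8.26 and 8.00 in untreated libraries and at 10.23, 9.92 and 9.88 with TNFa. Every TNFa library was above every untreated one. The change was 1.84 ± 0.08 (adjusted p = 3.33e-13), 1.97 in batch 1 and 1.77 in batch 2, and the authors' deposited table gives 2.16. None of the 9 other tested genes within 100 kb was called in this comparison.

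Psmb8 encodes the immune form of the chymotrypsin-like subunit, at chr17:34198195-34201454 on the plus strand within the MHC. Untreated libraries held it at 5.91, 5.62 and 5.74 and TNFa libraries at 8.04, 7.10 and 7.08. The groups did not overlap, and the batch 1 library was the highest of the TNFa group. The change was 1.65 ± 0.12 (adjusted p = 7.59e-10), 2.13 in batch 1 and 1.40 in batch 2. The authors' deposited table gives 3.09 for it.

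Psmb9, the immune form of the caspase-like subunit, lies next to Psmb8 at chr17:34182099-34187330 on the minus strand. It was the least expressed member, at 5.08, 4.61 and 4.60 in untreated and 5.64, 5.13 and 5.16 in TNFa libraries. The groups did not overlap, although untreated replicate 1 came within reach of the batch 2 TNFa libraries. The change was 0.55 ± 0.08 (adjusted p = 4.09e-05), where the authors' deposited table gives 1.85. Between Psmb9 and Psmb8 lies Tap1, a subunit of the transporter that carries peptides to MHC class I. The starts of Psmb9 and Tap1 face away from each other with 225 bases between them. Tap1 rose by 0.87 ± 0.09 (adjusted p = 2.01e-07), and Tap2, the other subunit of that transporter on the far side of Psmb8, by 1.52 ± 0.06 (adjusted p = 6.07e-14).

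The PA28 genes are also neighbours, 5.91 kb apart on chromosome 14, with Psme1 at chr14:55578494-55581527 on the plus and Psme2 at chr14:55587440-55591101 on the minus strand. Of the 13 other tested genes within 100 kb of Psme2, 3 were called higher with TNFa and 0 lower, against 9.16% and 6.32% of tested entries. The 3 were Psme1, Rnf31 (0.641 kb away, 0.29 ± 0.07, adjusted p = 0.00853) and Irf9 (12.9 kb away, 0.37 ± 0.10, adjusted p = 0.0161). Psme2 stood at 9.61, 9.52 and 9.51 in untreated and 10.35, 10.21 and 10.35 in TNFa libraries, a change of 0.76 ± 0.07 (adjusted p = 9.1e-08). Psme1 stood at 9.52, 9.18 and 9.29 in untreated and 9.94, 9.71 and 9.67 in TNFa libraries, a change of 0.44 ± 0.06 (adjusted p = 6.92e-06). Neither pair of groups overlapped. Groups did not overlap upward for these 5 genes and for 5 of the 42 others, and downward for 1 of the 42, against 9.5% and 7.5% of tested entries. Each of the 5 immune forms remained called in all 6 fits that left out 1 untreated or TNFa library.

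**Figure D1:**
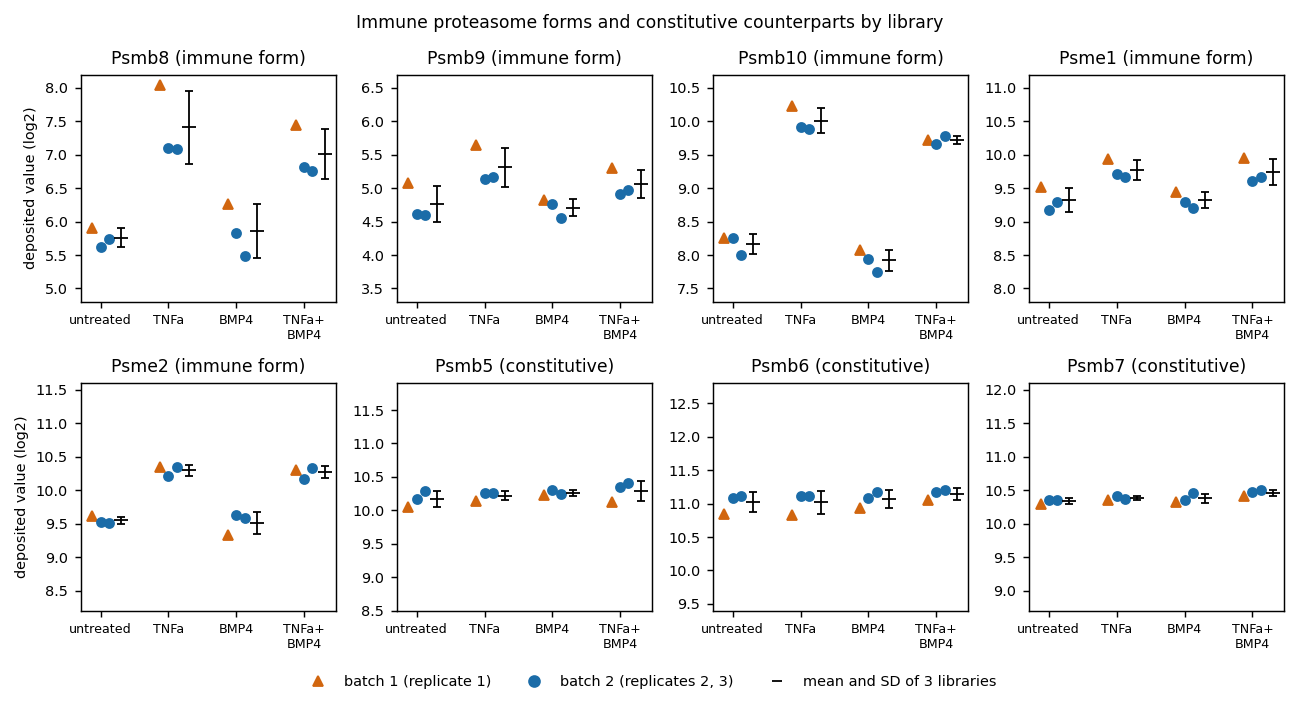
Deposited log2 values (vertical axis) of the 5 immune forms and of Psmb5, Psmb6 and Psmb7 in the 4 groups (horizontal axis), with triangles for batch 1, circles for batch 2, and the mean and SD of 3 libraries as bars. Panels span equal log2 distances: the immune forms stand higher in both groups given TNFa, and the constitutive subunits stay within a narrow band.

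Sequences from before the start of these genes are shown because immune and constitutive forms differed in their response. They come from RefSeq windows of GRCm38.p6. A window was matched by symbol for 40 of the 47 genes, and 32851 windows of all genes served for comparison. In 39 of the 40 the start equalled that of the deposited table. Motifs were searched on both strands of the 250 bases before each start. Single matches of Psmb9 were listed only from the 225 bases between its start and that of Tap1. They included GGG, any 5 bases and CC (labelled kappa B), and GAAA, any 2 bases and GAAA (bound by IRF factors). The others were TTCNNNGAA (GAS, bound by STAT factors), TGACNNNGC (antioxidant response element, bound by Nfe2l1 and Nfe2l2) and CCAAT (bound by NF-Y). The kappa B letters are looser than the sites that NF-kB is known to bind, so a match need not be such a site. Each line gives a match with 10 bases on either side, 5′ to 3′ on the strand of the gene, with the matching letters in capitals. Starts of other annotated transcripts can lie further out: 1 annotated exon of the same gene covers all 250 bases before the Psmb8 start, up to 225 before Psmb9, up to 134 before Psme1 and up to 50 before Psma6.
Psmb8 GAS match, 97 to 89 bases before the start: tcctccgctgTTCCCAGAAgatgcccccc
Psmb9 kappa B match on the opposite strand, 178 to 169 bases before: tcccatcccaGGCCCCACCCcagattgagg
Psmb9 kappa B match, 55 to 46 bases before: cgcgatgatgGGGCGGGGCCtcagtctgca
Psme1 kappa B match on the opposite strand, 61 to 52 bases before: cctctcagtaGGCTGTCCCCgcctcctcca
Psme2 kappa B match on both strands, 139 to 130 bases before: ccccacctctGGGTACCCCCtttcctattg
Psma6 kappa B match on both strands, 70 to 61 bases before: gcagtgctttGGGACGTCCCgtccccaccg
Psmb5 antioxidant response match, 47 to 39 bases before: cgtgaagttgTGACGTCGCggcgttgcca

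The kappa B letters are frequent in such windows: 45.8% of all windows held them, as did 3 of 5 immune forms and 20 of 35 others (57.1%). Psmb9 had 5 matches in the 225 bases up to the Tap1 start, of which 2 overlap by all but 1 base, and Psme1 had 3 in 250 bases. The GAS letters were in 7.02% of all windows, in Psmb8 and in 1 of 35 others. The IRF letters were in 2.98% of windows, in no immune form and in 3 of 35 others. The antioxidant response letters were in 10.2% of windows, in no immune form and in 5 of 35 others, and CCAAT was in 33.8% of windows, in Psmb9 and in 11 of 35 others. A match is a description of letters only.

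Psmb10 had the largest rise with TNFa on the deposited scale, although the authors' deposited table gives a larger one for Psmb8, and it had none of the 5 motifs in its window. Its stretch from 250 to 53 bases before the start, at chr8:105938445-105938642 on the minus strand, is shown beside the same region of Psme2 and of the constitutive Psmb5, each ending where annotated exons begin. Capitals mark the kappa B letters in Psme2 (chr14:55591114-55591351, minus strand) and the antioxidant response letters in Psmb5 (chr14:54618023-54618245, minus strand).
Psmb10: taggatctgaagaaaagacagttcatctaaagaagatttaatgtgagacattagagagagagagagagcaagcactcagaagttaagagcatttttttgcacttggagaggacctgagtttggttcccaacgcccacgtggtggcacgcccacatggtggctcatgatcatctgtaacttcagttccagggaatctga
Psme2: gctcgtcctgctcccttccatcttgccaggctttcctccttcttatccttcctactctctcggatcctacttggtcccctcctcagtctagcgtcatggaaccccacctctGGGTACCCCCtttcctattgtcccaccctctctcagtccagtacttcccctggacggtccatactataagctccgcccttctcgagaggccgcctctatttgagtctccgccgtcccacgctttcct
Psmb5: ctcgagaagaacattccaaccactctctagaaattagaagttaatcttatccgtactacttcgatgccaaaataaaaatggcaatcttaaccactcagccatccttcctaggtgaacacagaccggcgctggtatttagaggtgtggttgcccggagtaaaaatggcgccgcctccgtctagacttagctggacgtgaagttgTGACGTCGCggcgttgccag

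The counterparts of the catalytic immune forms were not called with TNFa. Psmb5 stood at 10.05, 10.17 and 10.29 in untreated and 10.14, 10.26 and 10.26 in TNFa libraries, a difference of 0.05 ± 0.06 (adjusted p = 0.651). Psmb6 stood at 10.85, 11.09 and 11.12 against 10.83, 11.12 and 11.12, a difference of 0.00 ± 0.05 (adjusted p = 0.996). Psmb7 stood at 10.29, 10.35 and 10.36 against 10.35, 10.41 and 10.37, a difference of 0.04 ± 0.05 (adjusted p = 0.655). In each pair the groups overlapped.

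The balance within each catalytic pair was read from values per length, as the immune gene's log2 value per kb minus that of its counterpart. For every 100 of Psmb7 per kb there were 17.0 of Psmb10 in untreated cells, 59.0 with TNFa, 13.8 with BMP4 and 45.5 with both. For every 100 of Psmb5 there were 3.35 of Psmb8 in untreated cells, 10.1 with TNFa, 3.38 with BMP4 and 7.32 with both. For every 100 of Psmb6 there were 1.68 of Psmb9 in untreated cells, 2.45 with TNFa, 1.58 with BMP4 and 1.90 with both. On the deposited scale constitutive values thus exceeded immune ones in every group mean. The transformation behind that scale is not named, so these balances and their shifts may not be true proportions of transcripts. Psmb8 and Psmb9 are also the genes whose changes differ most from those in the authors' deposited table, and no test was made on these balances.

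**Figure D2:**
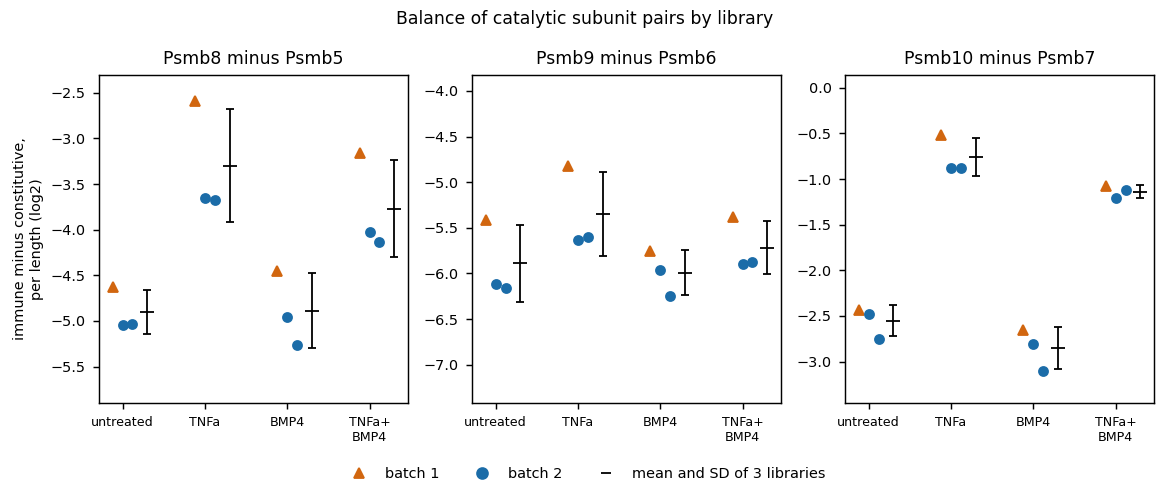
Difference between an immune form and its constitutive counterpart per length (log2, vertical axis) in each library of the 4 groups (horizontal axis), with triangles for batch 1, circles for batch 2, and mean and SD of 3 libraries. Values are below 0 in every library, and the Psmb10 balance stands nearest to 0 with TNFa, at -0.52, -0.88 and -0.88.

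Among the 42 other genes, 6 were called higher with TNFa (14.3%) and 0 lower, near the 12.5% called higher among entries with a mean log2 of at least 9 and above the 9.16% of all tested entries. Their median change was 0.06, against 0.76 for the immune forms and -0.01 for all tested entries. The largest belonged to Psme2b, a retrocopy of Psme2 at chr11:48945352-48946410, whose reads may be shared with its parent. It stood at 8.26, 8.44 and 8.54 in untreated and 8.92, 9.01 and 8.99 in TNFa libraries, a change of 0.56 ± 0.07 (adjusted p = 2.97e-06). How the reads of near-identical copies were assigned is not given in the sources used here, so its change and that of Psme2 cannot be told apart.

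Psma6, a subunit of the alpha ring, was the one structural core subunit with a sizeable change. Its libraries read 10.13, 10.24 and 10.21 untreated and 10.68, 10.57 and 10.52 with TNFa, with no overlap. The rise was 0.40 ± 0.06 (adjusted p = 6.21e-05). Of 3 tested neighbours within 100 kb, the nearest, Prorp (16.3 kb, -0.07 ± 0.10), and Ppp2r3c (0.13 ± 0.08) were not called. The third, Nfkbia at 71.0 kb, the inhibitor gene that NF-kB itself induces, rose by 2.60 ± 0.13 (adjusted p = 3.5e-12). The other 6 alpha subunits had differences of -0.03 to 0.13 and none was called.

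Psmd10, also called gankyrin, a chaperone that helps assemble the base, stood at 7.91, 7.74 and 7.92 in untreated and 8.37, 8.33 and 8.03 in TNFa libraries. The groups did not overlap and the rise was 0.38 ± 0.09 (adjusted p = 0.00451). Psme3, the nuclear activator PA28 gamma, stood at 10.83, 10.90 and 10.96 against 11.09, 11.16 and 11.17, also without overlap, and rose by 0.24 ± 0.05 (adjusted p = 0.00253). Psmd5, another base chaperone, rose by 0.18 ± 0.06 (adjusted p = 0.0494), and the beta subunit Psmb4 by 0.15 ± 0.05 (adjusted p = 0.0304). Both of these had overlapping groups. Psmd5 kept its call in 1 of 6 fits that left out a library (adjusted p up to 0.336), and Psmb4 in 2 of 6 (up to 0.138).

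No gene of the regulatory particle was called with TNFa: 0 of 17 in the base and lid by limma. The shares of tested entries were 9.16% called higher and 6.32% lower. Against 3124 of the 11765 tested entries, 0 of the 17 had an unadjusted p under 0.05 by limma. Their differences ran from -0.07 for the lid subunit Psmd8 to 0.11 for the lid subunit Psmd11. The activator Psme4 (PA200) differed by 0.04 ± 0.05 and the inhibitor Psmf1 (PI31) by 0.00 ± 0.06. The core chaperone Psmg2 had the lowest difference, -0.20 ± 0.07, with TNFa libraries at 8.10, 7.99 and 7.96 below the untreated ones at 8.22, 8.22 and 8.21, and was not called (adjusted p = 0.0763). The authors' deposited table called 9 of the 47 genes, the 5 immune forms and Psma6, Psmd10, Psme2b and Psme3.

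Levels per length put these responses on a common scale. The 31 constitutive structural subunits had a median of 10.08 log2 units per kb, from 8.68 for Psma3 to 11.45 for Psmb1. The 7 assembly chaperones were lower, with a median of 7.73. Over all libraries Psme2 (10.26) and Psme1 (9.59) lay within the range of the structural subunits. Psmb10 (8.62) lay just under Psma3, which alone set the lower end, since the next lowest structural subunit was Psmc4 at 9.52. The listed length of Psma3 is 2385 bases, and that of Psma7 is 1582. Before division by length Psma3 had a mean of 9.93, between Psma5 (9.81) and Psma1 (10.02). Psmb8 (6.23) and Psmb9 (5.29) lay far beneath the range. With TNFa, Psmb10 reached 9.68 per kb.

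**Figure D3:**
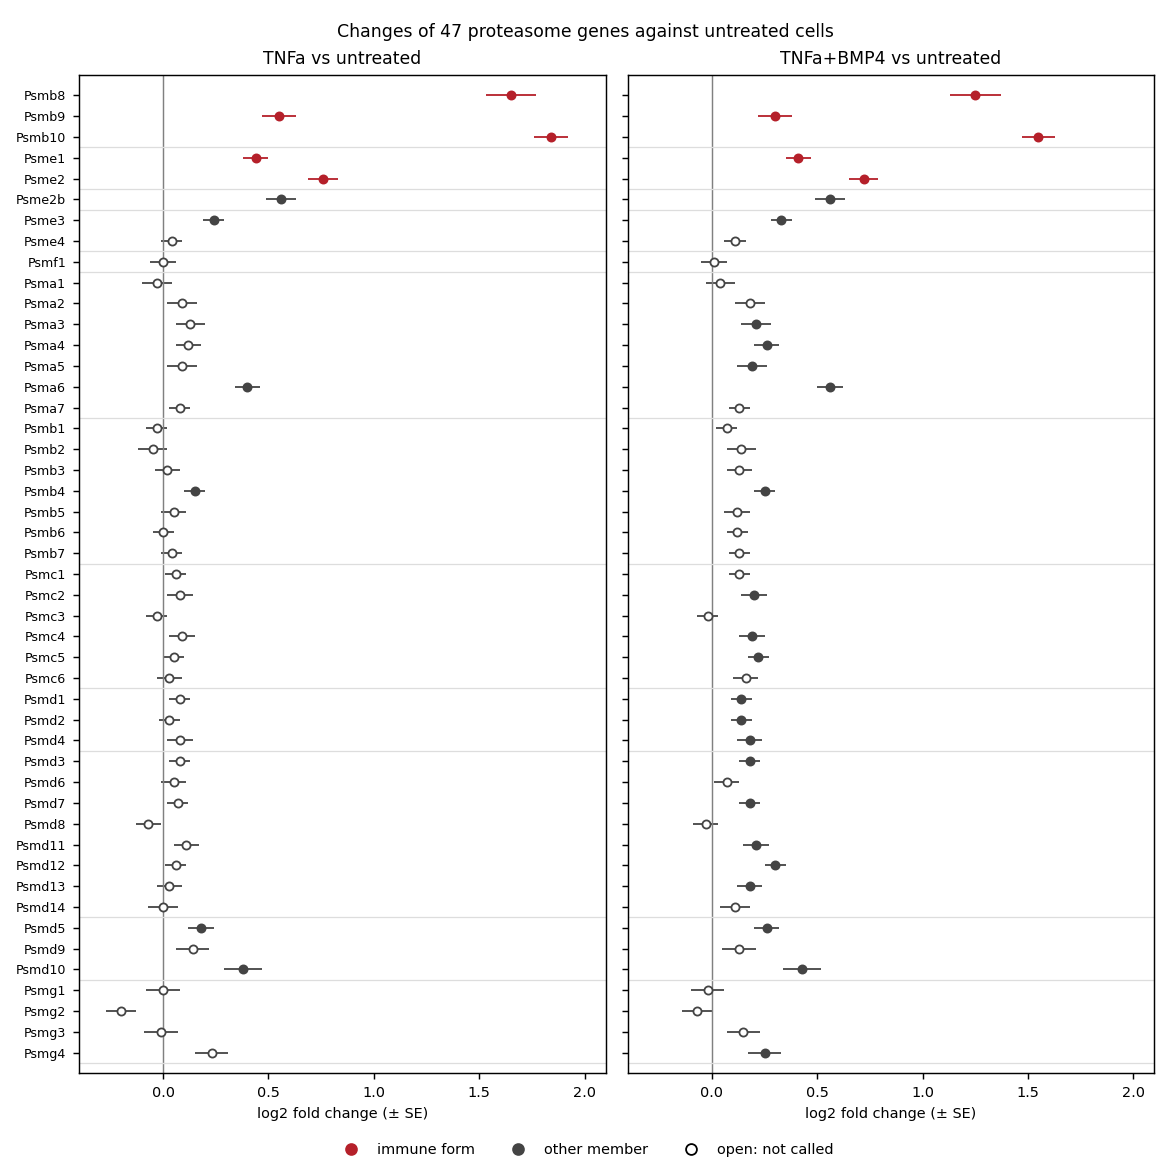
Change of each of the 47 genes against untreated cells (log2 fold change ± SE, horizontal axis) with TNFa (left) and with TNFa+BMP4 (right), ordered by role. Immune forms are red and others dark, and open circles were not called: the immune forms stand to the right in both panels, and 21 of the 42 others are filled at right against 6 at left.

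BMP4 alone gave few calls among these genes, near or below the shares of all tested entries. It raised 3 of 47 (6.38%) and lowered 1 (2.13%), against 6.75% of tested entries called higher and 5.47% lower. The 3 were subunits of the regulatory particle: the ATPases Psmc4 (0.18 ± 0.06, adjusted p = 0.0413) and Psmc1 (0.17 ± 0.05, adjusted p = 0.0268) and the lid subunit Psmd12 (0.16 ± 0.05, adjusted p = 0.036). Psmc1 stood at 10.40, 10.85 and 10.74 in untreated and 10.57, 11.01 and 10.93 in BMP4 libraries. Psmc4 stood at 9.70, 10.01 and 10.05 against 9.85, 10.16 and 10.27. Psmd12 stood at 10.06, 10.36 and 10.32 against 10.27, 10.48 and 10.48. Groups overlapped for each, because batch 1 was lower in both groups, and within each batch every BMP4 library was above every untreated one. These calls held in 2 of 6, 1 of 6 and 1 of 6 fits without a library for Psmc1, Psmc4 and Psmd12. After quantile normalization 0 of the 47 were called higher, and the authors' deposited table called none.

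The gene that BMP4 lowered was Psmb10. It read 8.26, 8.26 and 8.00 in untreated and 8.07, 7.94 and 7.75 in BMP4 libraries, which overlap. The difference was -0.26 ± 0.08 (adjusted p = 0.0427). It held in 2 of 6 fits without a library (adjusted p up to 0.196 without untreated replicate 2) and reached 0.0771 after quantile normalization. The authors' deposited table gives an adjusted p of 0.213. The other immune forms differed by -0.05 ± 0.08 (Psmb9), -0.04 ± 0.07 (Psme2), -0.01 ± 0.06 (Psme1) and 0.10 ± 0.12 (Psmb8), none called. The median of the 5 was -0.04, and 0.05 without BMP4 replicate 1. The median of the 42 others was 0.06 and 35 of them had a positive difference, against 5878 of the 11765 tested entries. After quantile normalization 29 were positive, with a median of 0.03.

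When BMP4 followed TNFa, the immune forms stayed above untreated cells. More of the 42 others were called higher than with TNFa alone, mostly by small changes. The share of all tested entries called higher was also larger, at 16.8% against 9.16%. Set directly against TNFa alone, 2 of the 42 were called higher. In all 26 of 47 genes were called higher and 0 lower, against 16.8% of tested entries called higher and 14.4% lower. Among entries with a mean log2 of at least 9 the shares were 23.9% and 12.7%. The 26 genes were the 5 immune forms and 21 of the 42 others. At an unadjusted p under 0.05 by limma, 34 of the 47 passed in either direction, as did 4876 of the 11765 tested entries. The median change of the others was 0.15, against 0.72 for the immune forms and 0.00 for all tested entries, and 38 of 42 were positive. This comparison uses the same untreated libraries as the TNFa comparison, so the 2 are not independent.

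At an adjusted p under 0.05 the calls among constitutive genes were spread over the roles as follows. In the regulatory particle 11 of 17 were called: the ATPases Psmc2, Psmc4 and Psmc5 of 6, the scaffold subunits Psmd1 and Psmd2 with the ubiquitin receptor Psmd4, and 5 of 8 lid subunits. In the core 5 of 14 were called, 4 of 7 in the alpha ring and 1 of 7 in the beta ring (Psmb4). The core assembly chaperones gave 1 of 4 (Psmg4) and the base chaperones 2 of 3 (Psmd5 and Psmd10). The median changes were 0.18 in the regulatory particle, 0.19 in the alpha ring and 0.13 in the beta ring. They were 0.26 for the base chaperones and 0.07 for the core chaperones. In the beta ring Psmb6 and Psmb7 missed a call narrowly by limma (adjusted p = 0.0576 and 0.0514). The adjusted p was 0.062 for Psma2, 0.073 for Psma7, 0.0923 for Psmb3 and 0.097 for Psmb5. At an unadjusted p under 0.05 by limma, 11 of 14 core genes and 13 of 17 in the regulatory particle passed. So did 4876 of the 11765 tested entries. The difference was positive for 14 of 14 and 15 of 17, so the roles differed less there than in calls. No test compared these roles with one another. After quantile normalization 11 of the 42 others were called and 36 were positive, with a median of 0.11. Without TNFa+BMP4 replicate 1, 16 of the 47 were called.

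Psma6 had the largest change among the structural subunits with both factors. Its TNFa+BMP4 libraries read 10.80, 10.75 and 10.72, above every library of the other 3 groups, and the change against untreated cells was 0.56 ± 0.06 (adjusted p = 4.63e-07). Psmd10 read 8.27, 8.35 and 8.23, a change of 0.43 ± 0.09 (adjusted p = 0.000984). Psme3 read 11.21, 11.21 and 11.27, a change of 0.33 ± 0.05 (adjusted p = 5.14e-05). Both groups lay above all untreated libraries. Psmd12 read 10.44, 10.59 and 10.61, also above all untreated ones, a change of 0.30 ± 0.05 (adjusted p = 7.97e-05).

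The counterparts Psmb5, Psmb6 and Psmb7 differed from untreated cells by 0.12 ± 0.06, 0.12 ± 0.05 and 0.13 ± 0.05 and were not called (adjusted p = 0.097, 0.0576 and 0.0514). The immune forms rose by 1.55 ± 0.08 (Psmb10), 1.25 ± 0.12 (Psmb8), 0.72 ± 0.07 (Psme2), 0.41 ± 0.06 (Psme1) and 0.30 ± 0.08 (Psmb9). Psmb9 was the one whose groups overlapped, with 5.30, 4.92 and 4.97 against 5.08, 4.61 and 4.60, although it was higher within each batch. Groups did not overlap upward for 4 of 5 immune forms and 12 of 42 others, against 13.7% of tested entries. The authors' deposited table called the 5 immune forms and 12 of the 42 others.

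Set directly against TNFa alone, TNFa+BMP4 had lower values of the catalytic immune forms Psmb8 and Psmb10, and no call for the PA28 pair. Of the 47 genes 2 were called lower and 2 higher, against 6.2% of tested entries called lower and 5.47% higher. The 2 lower genes were Psmb8 and Psmb10. Psmb8 read 7.45, 6.82 and 6.76 with both factors against 8.04, 7.10 and 7.08 with TNFa, a difference of -0.39 ± 0.12 (adjusted p = 0.0299). The groups overlapped, but within each batch every library given both was below every TNFa library. Psmb10 read 9.72, 9.66 and 9.78 against 10.23, 9.92 and 9.88, without overlap, a difference of -0.29 ± 0.08 (adjusted p = 0.0236). Psmb9 read 5.30, 4.92 and 4.97 against 5.64, 5.13 and 5.16 and was not called at -0.24 ± 0.08 (adjusted p = 0.0558).

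These calls were near the threshold. Psmb8 and Psmb10 each held in 2 of 6 fits without a library, with adjusted p up to 0.243 for Psmb8 without TNFa replicate 1 and up to 0.174 for Psmb10 without TNFa+BMP4 replicate 1. In batch 2 alone neither was called. After quantile normalization the adjusted p of Psmb8 was 0.0549. The authors' deposited table called both lower, with log2 changes of -0.57 and -0.32. Psme1 and Psme2 both differed by -0.03, with SEs of 0.06 and 0.07.

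The 2 genes called higher were Psmd12 (0.24 ± 0.05, adjusted p = 0.00226) and the ATPase Psmc5 (0.17 ± 0.05, adjusted p = 0.0233). Psmd12 read 10.44, 10.59 and 10.61 with both factors against 10.21, 10.35 and 10.37 with TNFa, without overlap, and held in all 6 fits without a library. Psmc5 read 10.76, 10.96 and 11.02 against 10.60, 10.82 and 10.80 and held in 1 of 6 (adjusted p up to 0.0891 without TNFa+BMP4 replicate 3). Groups did not overlap upward for 7 of the 42 constitutive and accessory genes and downward for 1 immune form, Psmb10, against 8.03% and 7.81% of tested entries. Of the 42 genes 40 had a positive difference, with a median of 0.10, against 50.7% of all tested entries and a median of 0.00. After quantile normalization 39 were positive, with a median of 0.06.

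**Figure D4:**
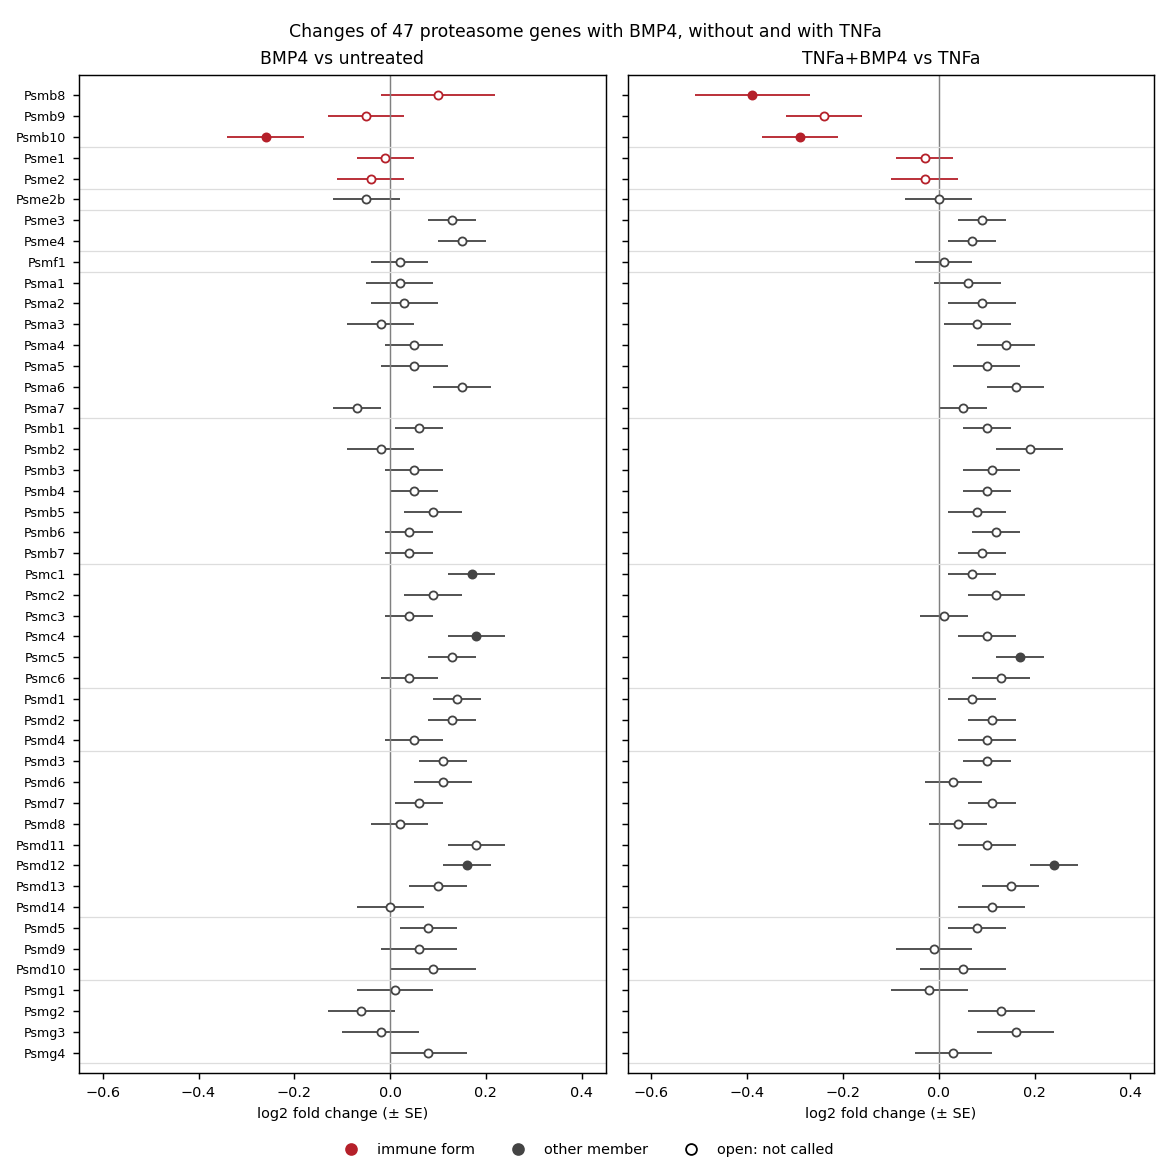
Change of each of the 47 genes (log2 fold change ± SE, horizontal axis) with BMP4 against untreated cells (left) and with TNFa+BMP4 against TNFa (right), ordered by role, with immune forms in red and open circles for genes not called. At right the catalytic immune forms Psmb8, Psmb9 and Psmb10 lie at -0.39, -0.24 and -0.29 while 40 of the 42 others lie above 0.

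In cells given BMP4, TNFa raised 14 of the 47 genes and lowered 0, against 8.78% of tested entries called higher and 7.41% lower. At an unadjusted p under 0.05 by limma, 21 of the 47 passed in either direction, as did 3251 of the 11765 tested entries. The 14 were the 5 immune forms and 9 others. The immune changes were 1.8 ± 0.08 for Psmb10, 1.15 ± 0.12 for Psmb8, 0.76 ± 0.07 for Psme2, 0.42 ± 0.06 for Psme1 and 0.35 ± 0.08 for Psmb9. The libraries given both factors lay above every BMP4 library for all 5, as they did for 9.17% of tested entries.

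Whether the TNFa response differed with BMP4 was tested as an interaction. By limma 0 of 47 genes were called in either direction, against 0.0085% of entries higher and 0.0085% lower. An unadjusted p under 0.05 was seen for 560 of the 11765 tested entries and for 1 of the 47. That gene was Psmb8, whose TNFa response was lower by 0.50 on the log2 scale with BMP4 (SE 0.16, unadjusted p = 0.00607, adjusted p = 0.75). The same term was -0.20 ± 0.11 for Psmb9, -0.03 ± 0.11 for Psmb10, -0.02 ± 0.08 for Psme1 and 0.00 ± 0.10 for Psme2.

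In the peptide route to MHC class I, where products of the proteasome are used, TNFa gave 8 of 11 tested genes (12 listed) called higher and 0 lower, with a median of 0.74, against 9.16% of tested entries called higher and 6.32% lower. They were led by the peptide-loading proteins Tapbp (1.66 ± 0.07) and Tapbpl (1.63 ± 0.07), and B2m, the light chain of MHC class I, rose by 0.43 ± 0.05. BMP4 alone lowered Tap1 by 0.46 (SE 0.09, adjusted p = 0.00107) and Tap2 by 0.32 (SE 0.06, adjusted p = 0.000995). Against TNFa alone, the group given both factors had 4 of 11 called lower and 0 higher (6.2% and 5.47% of tested entries): Tap1 at -0.50 ± 0.09, Tapbpl at -0.37 ± 0.07, Tapbp at -0.29 ± 0.07 and Tap2 at -0.25 ± 0.06. Psmb9 and Psmb8 flank Tap1 and their differences there were -0.24 and -0.39. Nlrc5, an activator of MHC class I genes, was below the minimum level.

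All 14 tested interferon-type regulators of 15 listed were called higher with TNFa, with a median of 0.51, against 9.16% of tested entries. Irf1, a transcription factor known to act on immunoproteasome genes, rose by 1.27 ± 0.10. BMP4 alone lowered Irf1 by 0.52 (SE 0.10, adjusted p = 0.00187). Against TNFa alone, the group given both factors had 4 of 14 called lower and 1 higher, against 6.2% and 5.47% of tested entries, and Irf1 differed by -0.15 ± 0.10 and was not called (adjusted p = 0.397).

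Among regulators of the constitutive proteasome genes, several were called with TNFa. Of 11 tested, 4 were called higher and 1 lower, against 9.16% and 6.32% of tested entries: the antioxidant response factors Nfe2l2 (0.86 ± 0.08) and Nfe2l1 (0.60 ± 0.05), the latter the known driver of proteasome gene recovery, with their partners Maff (1.10 ± 0.14) and Mafg up, and Ngly1, the enzyme that activates Nfe2l1, down. With both factors against untreated cells 6 of 11 were called higher and 2 lower, against 16.8% and 14.4% of tested entries, with Nfe2l1 at 0.53 ± 0.05 and Maff at 1.64 ± 0.14. BMP4 alone lowered Keap1, the inhibitor of Nfe2l2, by 0.32 (SE 0.06, adjusted p = 0.000856).

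Of 17 tested proteasome-associated genes, 0 were called with TNFa by limma. An unadjusted p under 0.05 was seen for 3 of them, and for 3124 of the 11765 tested entries. With both factors 3 of 17 were called higher and 0 lower (17.6%, near the 16.8% of tested entries called higher): the ubiquitin receptor Adrm1 (0.30 ± 0.06), the base-associated thioredoxin Txnl1 and the core maturation factor Pomp (0.18 ± 0.06). Among 13 tested ubiquitin and ubiquitin-like genes, 3 were called higher with TNFa (23.1%, against 9.16% of tested entries), led by Isg15 (0.79 ± 0.09). The polyubiquitin gene Ubb differed by 0.03 ± 0.05 and was not called. Ubd, the ubiquitin-like FAT10, was below the minimum level.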

How the data were processed

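The data were 12 polyA RNA-seq libraries of paired-end 150 bp reads, 3 per group. Trim Galore, HISAT2, HOMER and the mm10 build are named in the submitters' processing notes. Versions are not given in the sources used here. Per the file headers, HOMER counted exon reads for 1 transcript per gene and tested pairs of groups with batch as a factor. The 12 library columns were deposited as log2 values, with a transformation that is not named and no batch adjustment. The authors' log2 fold changes, p-values and adjusted p-values were deposited in the same table. Header and labels number the batches in opposite order, with the same split.

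A count model was planned, but the table holds no counts. Instead, limma 3.58.1 (R 4.3.3) was run on the log2 values with groups and an additive batch term with a variance trend (7 residual degrees of freedom), after a minimum mean log2 of 4, which 11765 of 17701 entries not at 0 throughout passed. P-values are two-sided and adjusted by Benjamini-Hochberg within each contrast. Per-length levels divide by the transcript length in the table. The fit was tested on simulated data.

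The members and lists were chosen with earlier results of these data known. Named by rule were the immune forms and their counterparts, Psme3, Psme4 and Psmf1, per contrast the 3 other called members with the largest change in each direction, the 2 most changed genes of each related list, and 14 genes always; further members were named after their values were seen, to complete counts. Alternatives were no batch term, no variance trend, quantile normalization, other minimum levels, batch 2 alone, a replicate block, leaving out each library and leaving out Psme2b. A few genes of the related lists that the naming rule selects are not reported here.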

Additional observations from a re-analysis of the deposited data

How the results depend on the processing

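Neither the TNFa nor the TNFa+BMP4 difference between the immune median and that of the others, against untreated cells, changed direction under any alternative run. With BMP4 alone the immune median of -0.04 turned to 0.05 without BMP4 replicate 1 and to 0.02 in batch 2 alone. Without a batch term the counts of genes called higher fell from 11 to 5 (TNFa), 3 to 0 (BMP4), 26 to 7 (both against untreated), 2 to 0 (both against TNFa) and 14 to 4 (both against BMP4), and those called lower from 1 to 0 (BMP4) and 2 to 0 (both against TNFa). Without a variance trend BMP4 called 0 higher and 0 lower, and both against TNFa 1 higher. Quantile normalization gave 0 higher and 0 lower for BMP4, 16 higher for both against untreated, and 1 higher and 1 lower for both against TNFa. With no filter BMP4 called 0 lower and both against TNFa 0 lower, and in batch 2 alone both against TNFa called 0 lower. With a minimum mean log2 of 6, Psmb9 was not tested and the immune median minus the median of the others went from 0.70 to 1.14 with TNFa. The causes were not tested.

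Leaving out each library of the groups compared gave 8 to 10 genes called higher with TNFa, 0 to 4 higher and 0 to 1 lower with BMP4, 16 to 25 higher for both against untreated (lowest without TNFa+BMP4 replicate 1), 1 to 3 higher and 0 to 2 lower for both against TNFa, and 8 to 13 higher for both against BMP4 (lowest without BMP4 replicate 1). The median differences ran from 0.67 to 0.75 with TNFa and from 0.53 to 0.62 with both. Leaving out Psme2b, an alternative chosen after seeing the data, kept them at 0.70 and 0.57.

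The replicate block called 10 higher with TNFa, 3 higher and 1 lower with BMP4, 26 higher for both against untreated, 2 higher and 2 lower for both against TNFa, and 13 higher for both against BMP4. Within batch 2 the deviations of same-numbered libraries correlated at 0.0199 to 0.164 over 6 pairs of groups, so the numbers were not taken to pair the libraries. With 3 libraries per group and SEs of 0.05 to 0.12 for named members, differences near 0.1 could not be called at this depth.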

Other observations

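The batches differed in these genes as well as the treatments. Adjusted for group, 35 of the 42 constitutive and accessory genes (83.3%) were higher in batch 2 and 0 were lower, with a median difference of 0.23, against 32.0% of tested entries higher and 32.1% lower. Of the 5 immune forms 4 were lower in batch 2 and 0 higher, with a median of -0.26: Psmb8 by -0.61, Psmb9 by -0.37, Psme1 by -0.26 and Psmb10 by -0.17, while Psme2 differed by 0.02. Psma6 also differed by only 0.02. Each batch holds every group, and the labels do not say what a batch is.

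Within the batches, the sign of the TNFa difference was positive in both for 5 of 5 immune forms and for 29 of 42 others. For both factors against untreated cells it was positive in both batches for 5 of 5 and 37 of 42, and for BMP4 alone for 0 of 5 and 22 of 42. Batch 1 holds 1 library per group, so its differences have no spread of their own. The same counts were not made over all tested entries, so no background share stands beside them. These comparisons share libraries and are values side by side.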
